A study of Mus musculus with 8 samples.

Results

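Peak calls were examined for 8 neural adhesion and nerve-related genes in lists of RNA carrying N6-methyladenosine (m6A), a methyl mark on adenosines inside transcripts. The genes were Cdh4, Nrcam, Ncam1, Ngfr, Ntf5, Ncald, Gadd45a and Grin3b. All peaks bearing one of these names were taken, and 7 of the 8 genes had at least 1 peak, out of 5987 gene names in the 4 lists together. Gastrocnemius muscle of the calf came from male C57BL/6 mice aged 10 weeks, and the labels name no transgene or deletion. Denervated muscle was taken 14 days after denervation, and innervated muscle came from the opposite leg, so both groups came from animals with a denervated leg. Each group had 2 immunoprecipitated (IP) libraries, captured with an m6A antibody, and each list was made against the uncaptured input with the same label and number. Whether the numbers stand for separate animals is not in the labels, so the spread between replicates may be technical.

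The genes were chosen by their measured values, that is, by the presence or absence of their peaks in the lists of each group. This presence in the lists of one group is therefore a description, carries no test and supports nothing. A peak call needs enough reads of the transcript as well as the mark. Read depth was not analysed here, so a missing peak does not show an unmethylated transcript, and a change of transcript level cannot be told apart from a change of methylation. In whole muscle, a change in the number of cells of a type cannot be told apart from a change of RNA per cell either.

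As background, cadherins and immunoglobulin-family adhesion molecules hold cells together at their surfaces, the former by calcium-dependent binding between like molecules. Neurotrophins are secreted by target tissues such as muscle and act on nerve and glial cells through receptor kinases of the Trk family and the low-affinity receptor Ngfr. Loss of the nerve is known to bring embryonic and junctional genes back along the muscle fibre, NCAM among them, while Schwann cells of the cut nerve take up a repair state.

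The calls split the genes into 2 sets. Nrcam, Ngfr and Ncald had peaks in both denervated lists and in neither innervated list, which gives 3 of the 8 genes, where 3.42% of all 5987 genes were called in that way. Cdh4, Ntf5, Gadd45a and Grin3b had peaks in both innervated lists and in neither denervated list, which gives 4 of the 8, where 3.14% of all genes were called so. Nothing is read from these shares, since the calls chose the genes. Ncam1 had no peak in any list.

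The 7 genes held 30 peaks. These numbered 8 and 10 in innervated replicates 1 and 2, and 6 and 6 in denervated replicates 1 and 2. They covered 2039 and 2534 bases in the innervated lists and 1492 and 2084 bases in the denervated lists. Peaks on the same strand whose blocks had 1 base or more in common, leaving aside the gaps inside a peak, were linked into 19 regions. Of these, 4 were called in both denervated libraries only and 6 in both innervated libraries only, where 3.67% and 4.20% of all 13116 regions had such calls. The other 9 regions, or 47.4%, were called in a single library, against 32.3% of all regions. These shares differ in base, since the genes were chosen for peaks in 1 group and their regions can lie in at most 2 libraries. Regions of other genes can lie in all 4 libraries, so nothing is read from the difference. Every gene with a peak had at least 1 region shared by the 2 libraries of its group. Nrcam and Gadd45a were the only ones of the 7 with no further region in a single library.

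**Figure D1:**
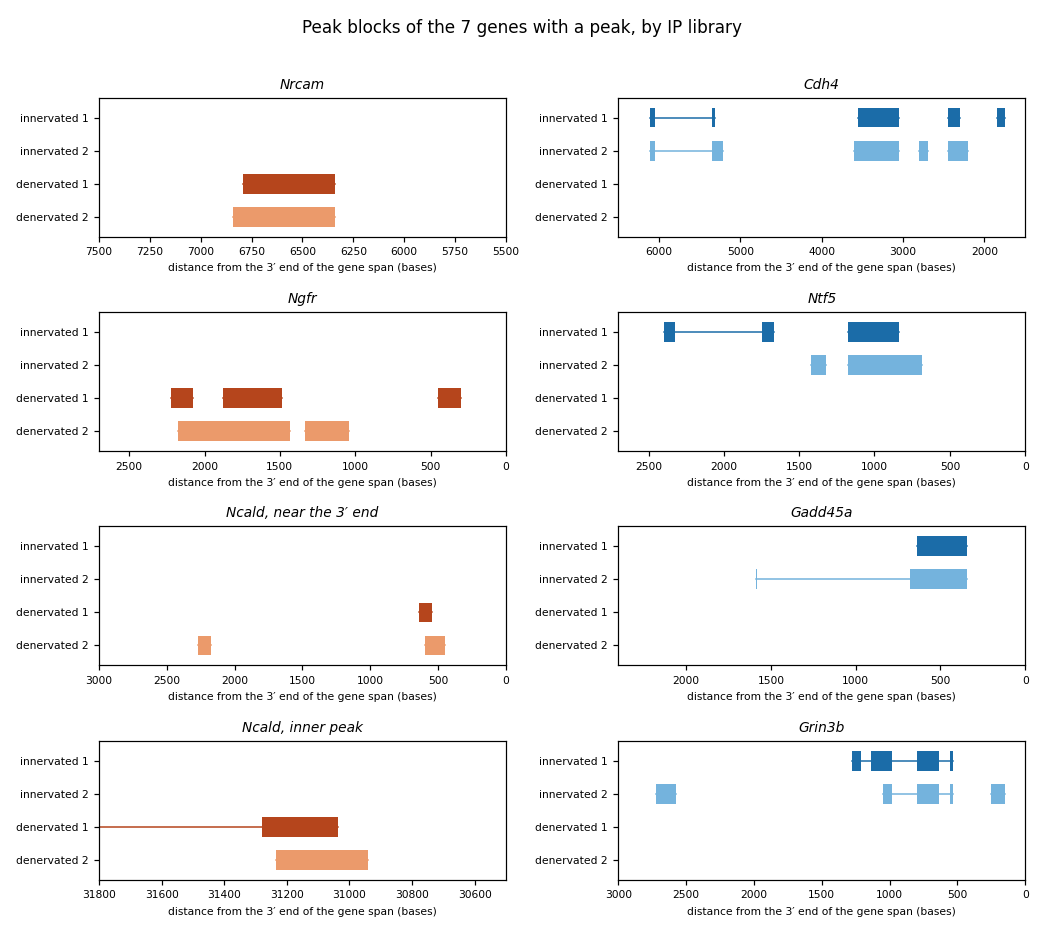
Blocks of the called peaks (bars) and the gaps inside a peak (thin lines) in each of the 4 IP libraries, by distance in bases from the 3′ end of the gene span; the denervated-only genes are on the left and the innervated-only genes on the right. The single Nrcam region and the Gadd45a region near the 3′ end lined up between libraries, whereas Cdh4, Ngfr, Ntf5, Ncald and Grin3b each had peaks in 1 library alone. The inner Ncald peak of denervated replicate 1 runs on beyond the left edge of its panel.

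Among adhesion molecules, Nrcam was on the denervated side. It encodes a member of the L1 family that acts in axon guidance and at nodes of Ranvier. Its single peak lay on the plus strand of chromosome 12, from 44598405 to 44598854 in denervated replicate 1 and from 44598355 to 44598854 in denervated replicate 2 (mm10). The 2 peaks ended at the same base, 6340 bases short of the 3′ end of the span, and shared 450 bases. That gave a Jaccard index, the shared bases over all bases covered by either list, of 0.900, against a median of 0.570 over the 205 denervated-only genes and 0.668 over the 3587 genes called in both denervated lists. The deposited scores were 3e-05 and 3.2e-05. Small scores were read as strong peaks, a reading the files do not settle, and were turned into a percentile within the list that is 100 at the smallest score. On that scale the Nrcam peak stood at 67.9 and 62.1.

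Cdh4, which encodes R-cadherin, a classical cadherin of the nervous system, was on the innervated side. It had 4 peaks in each innervated library, all on the plus strand of chromosome 2 between 179893265 and 179897627, within the last 6113 bases of a span of 456955 bases. Of its 5 regions, 3 were called in both libraries. The widest ran from 179895829 to 179896329 in replicate 1 and from 179895780 to 179896329 in replicate 2, so that 501 bases were shared. The farthest upstream was split in 2 blocks, and both libraries had the same first block of 67 bases, from 179893265 to 179893331, and the same gap of 696 bases after it. Single-library peaks covered 101 bases in replicate 1 and 100 bases in replicate 2. The Jaccard index was 0.626, and 60.6% of the innervated-only genes had an index as low or lower. The deposited score was the same for all 4 peaks of a library, 0.00029 in replicate 1 and 0.0018 in replicate 2. These placed the gene at percentiles 40.1 and 14.0, the lowest mean of the 7 genes, at 27.0 ± 18.4 (SD, n = 2).

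Ncam1, the neural cell adhesion molecule of the immunoglobulin family, had no peak under its own name, under the older names that RefSeq lists for it, or under any other gene's name within its span on chromosome 9 from 49502129 to 49799393. Its transcript level was not measured here.

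Of the neurotrophin system, a receptor and a ligand gene were among the 8. Ngfr, the low-affinity neurotrophin receptor carried by immature and repair Schwann cells, had 3 peaks in denervated replicate 1 and 2 in denervated replicate 2, all on the minus strand of chromosome 11. The region common to both ran from 95570252 to 95571042. Replicate 2 had a single peak of 741 bases there, from 95570252 to 95570992, while replicate 1 had peaks of 396 and 149 bases. The region from 95569117 to 95569265, only 299 bases from the 3′ end of the span, was called in replicate 1 alone, and the one from 95569857 to 95570153 in replicate 2 alone. The Jaccard index was 0.400, and 21.5% of the denervated-only genes had an index as low or lower.

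The 2 libraries ranked Ngfr far apart. Its score was 3.8e-07 in replicate 1 and 0.0033 in replicate 2, which put the gene at percentiles 88.2 and 8.64. The mean of 48.4 ± 56.3 (SD, n = 2) has a spread larger than itself, so no rank can be given to the gene.

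Ntf5, which encodes a neurotrophin that signals through the receptor kinase Ntrk2 and is made in muscle, had 2 peaks in each innervated library, on the plus strand of chromosome 7. Both libraries shared the peak that started at 45416002, which ended at 45416345 in replicate 1 and at 45416492 in replicate 2, 834 and 687 bases from the 3′ end of the span. Each library added a peak of its own. In replicate 1 it was split into blocks of 71 and 77 bases with 580 bases between them, and in replicate 2 it covered 99 bases. The Jaccard index was 0.466, and 35.1% of the innervated-only genes had an index as low or lower. The gene ranked high in both lists, at percentiles 84.4 and 87.7.

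Among signalling genes, Ncald was denervated only. It encodes neurocalcin delta, a calcium sensor with EF hands found mainly in neurons. It had 2 peaks in denervated replicate 1 and 3 in denervated replicate 2, on the minus strand of chromosome 15, in places far apart along a span of 426345 bases. The first region lay close to the 3′ end, from 37366718 to 37366817 in replicate 1 and from 37366620 to 37366768 in replicate 2, with only 51 bases in common. Replicate 2 alone had a peak from 37368348 to 37368447. The inner region started at 37397213 in replicate 1, where it had a block of 241 bases and, 50774 bases farther upstream, a second block of 7 bases. In replicate 2 it was an unbroken peak from 37397114 to 37397410, and 198 bases were common to both. The Jaccard index of the gene was 0.386, and 20% of the denervated-only genes had an index as low or lower. Unlike the other genes with several peaks, Ncald had a different score for each of its peaks. The inner peak had the smallest score in both libraries, 3.8e-07 and 3e-07, at percentiles 88.2 and 81.6. The peaks nearest the 3′ end stood at 75.6 and 79.6.

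Gadd45a, a stress-induced gene that acts in growth arrest and is known to be induced in denervated muscle, was called in the innervated lists only. Its single region lay on the minus strand of chromosome 6 and started at 67035438 in both libraries, 342 bases from the 3′ end of the span. In innervated replicate 1 the peak covered 295 bases up to 67035732, and all of them lay within the peak of replicate 2. The latter had a first block of 335 bases and a second of 9 bases beyond a gap of 905 bases. The Jaccard index was 0.858, against a median of 0.563 over the 188 innervated-only genes. The score was 5.5e-05 in replicate 1 and 0.00024 in replicate 2, at percentiles 60.3 and 41.2.

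Grin3b encodes a subunit of glutamate receptors of the NMDA type that is best known from motor neurons. Its peaks had the smallest scores of the 7 genes, 3.1e-10 in innervated replicate 1 and 2.5e-12 in innervated replicate 2, at percentiles 97.8 and 98.9. It lies on the plus strand of chromosome 10. Replicate 1 had a single peak from 79975917 to 79976655 in 4 blocks of 60, 152, 165 and 21 bases. Replicate 2 had a peak from 79976143 to the same last base in 3 blocks of 63, 165 and 21 bases. The blocks of 165 and 21 bases and the gap of 76 bases between them were the same in both libraries. Replicate 2 had another 2 peaks, of 149 and 100 bases, that replicate 1 lacked. The Jaccard index was 0.385, against a median of 0.563 over the innervated-only genes. Of those genes, 19.7% had an index as low or lower. At the 3′ end the span of Grin3b meets Tmem259 on the opposite strand. Peaks named Tmem259 began at 79977169, inside the Grin3b span, in innervated replicate 2 and denervated replicate 1. None of the Grin3b peaks overlapped them. If peaks were assigned by gene span on either strand, these would place Grin3b in denervated replicate 1 as well and end its call.

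**Figure D2:**
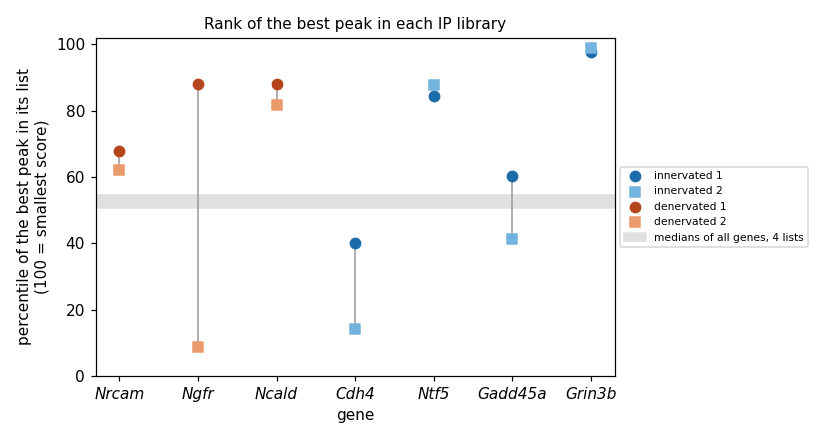
Percentile of each gene's best peak within its list (100 at the smallest deposited score) in the 2 IP libraries in which the gene was called; circles are replicate 1, squares replicate 2, grey lines join the 2 libraries, and the grey band spans the median over all genes in each list, 50.7 to 54.6. Grin3b, Ntf5, Ncald and Nrcam stood above the band in both libraries and Cdh4 below it, while the libraries disagreed for Ngfr and Gadd45a.

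Ordered by mean percentile, Grin3b (98.4 ± 0.785) was followed by Ntf5 (86.1 ± 2.34) and Ncald (84.9 ± 4.71), whose values overlapped, and then by Nrcam (65.0 ± 4.06), each as mean ± SD with n = 2. Gadd45a (50.7 ± 13.4) and Cdh4 (27.0 ± 18.4, both SD, n = 2) followed. Ngfr was left out of this order, since its values of 8.64 and 88.2 span those of Nrcam, Ntf5, Ncald, Gadd45a and Cdh4. The rank belongs to the gene more than to the peak in most cases: of the genes with at least 2 peaks in a list, 55.8% to 70.1% had the same score for all of them. The order is turned if large scores mark strong peaks. Cdh4 would then lead at 73.4 and Grin3b come last at 1.71.

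The peaks lay toward the 3′ end of the gene spans, introns included. Their middle stood at 41.7% to 99.9% of the way along the span, with a median of 95.4%, against 84.5% over all peaks placed. The Cdh4 peaks, in a span of 456955 bases, stood at 98.7% to 99.6%, and those of Ntf5 and Gadd45a at 41.7% to 78.8%. The median counts the peaks of each library separately and is no trait shared by all the genes. The lowest place was that of the split Ntf5 peak in innervated replicate 1. Of the 30 peaks, 7 (23.3%) had more than 1 block, against 12.6% of all peaks. The split peaks belonged to Cdh4, Ntf5, Ncald, Gadd45a and Grin3b. For Cdh4 and Grin3b the same region was split in both libraries and is counted once for each. The median length of the peaks was 248.5 bases, and that of all peaks 250.

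Other genes of the same families were looked up in 7 lists that hold 117 genes, 109 of them besides the 8 described. Of these 109, 1 was denervated only, 1 innervated only, 16 were called in all 4 libraries, 10 had other calls and 81 had no peak. Over the 28 of them with a peak, the denervated-only and innervated-only shares were 3.57% each, beside 3.42% and 3.14% of all genes with a peak. Each of these shares rests on 1 gene, so nothing is read from their closeness. The share called in all 4 libraries was 57.1%, against 48.8% of all genes with a peak.

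The further gene on the denervated side was St8sia2. It encodes a polysialyltransferase that adds polysialic acid to NCAM. It had 2 peaks in denervated replicate 1 and 1 in denervated replicate 2, at percentiles 20.6 and 51.4. The related enzyme gene St8sia4 was called in all 4 libraries, as was Ank2, an ankyrin that ties adhesion molecules to the cytoskeleton. Without Nrcam and Ncam1, which are among the 8 chosen, 1 of 22 immunoglobulin adhesion molecules and partners was thus denervated only, 0 were innervated only and 18 had no peak, Ncam2 among them.

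Among neurotrophin genes, Ntf5 was innervated only, while Bdnf and Ntf3 were called in all 4 libraries. Of the receptors, Ngfr was denervated only, and Ntrk2, which encodes the receptor kinase of Ntf5, had no peak. In the list of other neurotrophic factors and receptors, 0 of 18 genes were called in 1 group only; the receptor genes Gfra1, Lifr, Il6st and Erbb2 were called in all 4 libraries, and the ligand genes Nrtn and Artn had no peak.

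Cadherins and catenins had 4 of 20 genes called in all 4 libraries: Cdh5, Cdh19, Ctnnb1 and Ctnnd1. Cdh4 was the only one of them called in a single group, and the classical cadherin genes Cdh1 and Cdh2 had no peak. Of 12 genes of the Gadd45 family and its partners, Gadd45a was innervated only, and Gadd45g, the kinase gene Map3k4 and the ubiquitin ligase gene Mdm2 were called in all 4 libraries; Gadd45gip1 and Cdkn1a had no peak. Gadd45b, named after its values were seen, was called in all libraries but innervated replicate 1. Ncald was the only neuronal calcium sensor of 14 with peaks in both libraries of a group, since Hpca and Hpcal4 had none and Hpcal1, also named after its values were seen, had 1 peak in denervated replicate 1 alone. Grin3b was the only one of 12 genes of NMDA-type receptors and partners with any peak, and Grin1 and Grin2a had none. Cdh4, Gadd45a, Ncald and Grin3b are counted in these lists and were chosen by their calls. Nothing is therefore read from their standing alone there.

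**Figure D3:**
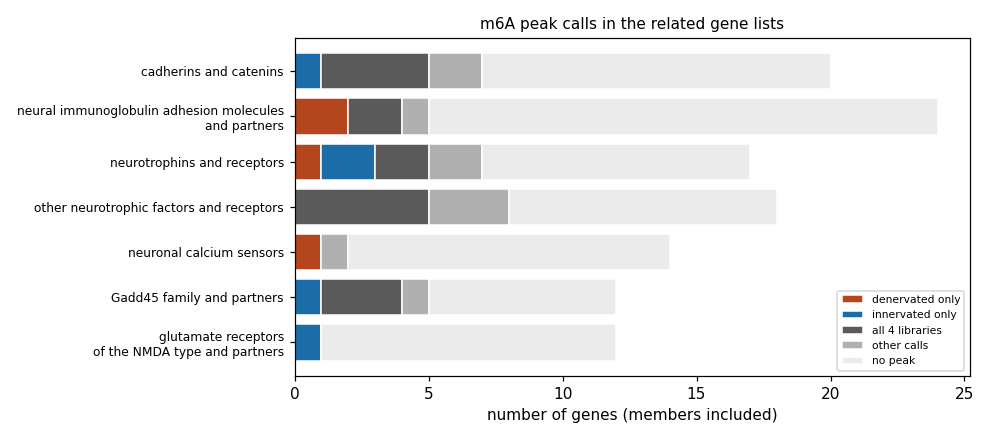
Number of genes in each of 7 related lists, the 8 genes described included, by call: denervated only, innervated only, all 4 libraries, other combinations, or no peak. In each list most genes had no peak, from 10 of 18 of the other neurotrophic factors and receptors to 11 of 12 of the NMDA-type receptors and partners.

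Ngfr is also a Schwann cell gene. Of 16 Schwann cell genes looked up, 3, 5, 4 and 4 had a peak in innervated replicates 1 and 2 and denervated replicates 1 and 2, with 7, 11, 9 and 8 peaks. Ngfr itself is one of the 16; over the other 15 the genes numbered 3, 5, 3 and 3 and the peaks 7, 11, 6 and 6. Of the 16, 8 had no peak in any list, the defining genes S100b and Mbp among them. Cdh19 and Egr2 were called in all 4 libraries, and Foxd3 was innervated only. Sox10 and Prx were called in innervated replicate 2 alone, Erbb3 in denervated replicate 1 alone and Cnp in denervated replicate 2 alone. The number of Schwann cells in the samples was not measured, and its part in the Ngfr call was not tested. Of 10 muscle fibre genes and 8 neuron and axon genes, 0 had a peak in any list, so the lists do not serve to check the tissue by these genes.

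The genes with the most similar pattern were sought among those with the same calls, as the smallest summed difference in percentile over the 2 libraries called. For Nrcam these were Bmpr2, a bone morphogenetic protein receptor gene (4.69), and Ankrd55 (5.73), and for Ncald they were Rgs1, a regulator of G-protein signalling (2.53), and Dclre1a, a gene of DNA crosslink repair (3.31). Ngfr was closest to AI847159 (5.35) and A630001G21Rik (8.01), whose libraries ranked them far apart in the same way. They stood at percentiles 84.6 and 6.89, and 88.8 and 16.1, in denervated replicates 1 and 2. No rank could be given to Ngfr, so nothing is read from its matches. On the innervated side, Ntf5 was closest to Chst2, a sulfotransferase gene (1.84), and Foxd3, a transcription factor gene of the neural crest (2.4). Grin3b was closest to Zfp108, a zinc finger gene (1.93), and 9930014A18Rik (8.77), Gadd45a to Pank1, a pantothenate kinase gene (3.29), and Net1 (9.66), and Cdh4 to Daam2 (9.64) and Ube2r2 (10.0). The choice was made from 202 denervated-only and 184 innervated-only genes, so close matches are bound to occur.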

How the data were processed

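The deposited files were 4 peak lists, 1 per IP library; per the file headers, each peak has a position, strand, blocks, a gene name and a score, a value set by the authors that lay between 0 and 0.023. STAR 2.4.2a, ChIPseeker and the mm10 build are named, per the submitters' processing notes. Which program called the peaks and what the score means is not given in the sources used here. Scores were used only to rank peaks within a list, as the percent of its peaks with a score at least as large. The lists held 9327 and 10300 peaks (innervated replicates 1 and 2) and 9804 and 9496 peaks (denervated replicates 1 and 2).

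Calls and regions were computed with Python 3.11.15, and the linking of peaks was tested on simulated data. Gene spans came from RefSeq GRCm38.p6, the assembly of mm10, in which all 8 genes were matched by symbol; 116 of the 117 list genes were matched. That table gives no strand, so for assignment by span the strand was taken from the peaks named for the gene. Exon annotation and the sequence under the peaks were not used here.

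The members and the lists were chosen with earlier results of these data known. Genes were named by rule: the 8 members, the 2 genes most alike to each, and, for each list, every gene called in 1 group only, the first 4 called in all libraries and the first 2 without a peak. Some genes that the rule selects are not reported here. No test was run. Alternatives were the 50% of a list's peaks with the smallest or the largest scores, equal numbers of peaks per list, reciprocal overlap of 50%, assignment by gene span, leaving out each library, the opposite reading of the score, a median in place of the best peak, and blocks in place of peaks.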

Additional observations from a re-analysis of the deposited data

How the results depend on the processing

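No paired analysis was possible because the labels do not tie the replicate numbers to animals and the calls come from no test. Read within each replicate number without a test, the calls give 3 genes in the denervated list alone and 4 in the innervated list alone for both numbers, as the choice of genes fixes. With 9327 peaks in each list, the 3 denervated-only and 4 innervated-only genes of the group kept their calls. The same held for assignment by gene span on the same strand; on either strand, an alternative chosen after seeing the data, Grin3b lost its call and 3 innervated-only genes were left. With only the 50% of peaks of smallest score in a list, Nrcam, Ncald, Ntf5 and Grin3b kept their calls, and innervated-only genes numbered 2 and innervated-only regions 2, while Cdh4 lost all peaks and Ngfr and Gadd45a stayed in replicate 1 only. With the 50% with the largest scores, Cdh4 alone kept its call, so that 0 genes and 0 regions were denervated only, and 1 gene and 3 regions innervated only. Genes whose peaks all stood on one side of the limit lose their call on the other side by construction. With a library left out the definition is looser, so all 7 genes stayed by construction; denervated-only regions then numbered 4 to 6 and innervated-only regions 6 to 10, the highest without innervated replicate 1. Reciprocal overlap of 50% left 3 denervated-only and 6 innervated-only regions. Blocks in place of peaks gave means per library of 6.5 against 6 (denervated) and 13.5 against 9 (innervated). The median percentile over the 7 genes was 65.0, and 35.4 if large scores mark strong peaks. Depth was unknown, so the reads behind a call or a missing call cannot be given.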
